A study of Mus musculus with 9 samples.

Results

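The osteoblast and mineralization genes are 34 genes that serve the bone-forming cells: transcription factors of the osteoblast, proteins of the bone matrix other than collagen, enzymes and transporters of phosphate and mineral, membrane and junction proteins, and chaperones of collagen. They were taken by symbol from the gene table of the mouse tibia, in which they make up 34 of 18272 genes, and all 34 were present. Of the 34, 30 reached 10 counts in 3 or more libraries and were tested, as were 13960 of the 18272 genes in all. Dlx6, Msx2, Bglap3 and Panx3 did not reach this level.

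Each of the 9 libraries came from the tibia of 1 female C57BL/6J mouse, with 3 mice in each of 3 groups. The mice were 10 to 11 weeks old on arrival. NGT mice had normal glucose tolerance, received the vehicle in place of streptozotocin and were given saline. T1D mice were made diabetic by 150 mg/kg of streptozotocin, a toxin of the insulin-producing beta cell, and were given saline. Lira mice received the same streptozotocin and then 0.6 mg/kg/day of liraglutide, an agonist of the GLP-1 receptor, for 8 weeks by the labels of mice 1 and 2 and for 9 weeks by the label of mouse 3. The diabetes was thus chemically induced, not autoimmune. The comparison of T1D with NGT mice addresses diabetic bone loss and that of Lira with T1D mice its treatment.

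Osteoblasts arise from mesenchymal progenitors when Runx2 and then Sp7 (osterix) switch on the genes of bone formation. They lay down a matrix of type I collagen together with osteocalcin, bone sialoprotein, osteopontin and osteonectin, and mineralize it by releasing phosphate and removing pyrophosphate, which inhibits crystal growth. Osteocalcin is regarded as a late marker of the lineage, and its level in blood is used as a sign of bone formation.

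Among the matrix proteins, osteocalcin is encoded in the mouse by a cluster of near-identical genes on chromosome 3, all on the minus strand. Their coding sequences are shown because reads from such genes may be split between them with uncertainty. They were taken from the GENCODE annotation of GRCm38, each is 285 bases long without the stop codon, and capitals mark the positions at which the 3 sequences are not all the same.
Bglap: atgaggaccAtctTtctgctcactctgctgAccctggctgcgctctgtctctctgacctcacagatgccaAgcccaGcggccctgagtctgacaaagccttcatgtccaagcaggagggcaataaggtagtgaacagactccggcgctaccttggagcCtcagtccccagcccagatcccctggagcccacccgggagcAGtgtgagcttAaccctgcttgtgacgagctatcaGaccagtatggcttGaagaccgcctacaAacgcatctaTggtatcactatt
Bglap2: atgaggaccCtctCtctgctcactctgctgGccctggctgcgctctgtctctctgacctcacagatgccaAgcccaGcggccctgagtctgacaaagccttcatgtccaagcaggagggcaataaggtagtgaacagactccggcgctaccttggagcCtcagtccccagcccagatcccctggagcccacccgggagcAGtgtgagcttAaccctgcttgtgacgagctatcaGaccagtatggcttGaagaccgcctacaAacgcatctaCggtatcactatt
Bglap3: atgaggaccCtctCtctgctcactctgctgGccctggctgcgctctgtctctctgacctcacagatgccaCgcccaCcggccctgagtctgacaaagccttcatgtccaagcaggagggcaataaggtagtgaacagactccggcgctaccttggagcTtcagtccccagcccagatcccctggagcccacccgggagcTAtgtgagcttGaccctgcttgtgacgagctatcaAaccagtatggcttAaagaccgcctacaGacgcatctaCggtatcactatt
Bglap and Bglap2 differed at 4 of the 285 positions (98.6% identity), and their longest identical stretch was 241 bases. Bglap3 differed at 13 positions from Bglap and at 9 from Bglap2. The separate values of Bglap and Bglap2 are therefore uncertain, while their sum is less so.

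The promoters of the regulator Runx2 and of the matrix genes Bglap, Ibsp and Spp1, which varied widely between mice, are shown with the letters ACCACA, or TGTGGT on the other strand, the core of the sequence that RUNX proteins bind. The windows run from 250 bases before to 50 bases after the annotated start, come from RefSeq with the build GRCm38.p6, and are written in the direction of the gene with each match in capitals.
Runx2 (chr17:44814578-44814877, minus strand): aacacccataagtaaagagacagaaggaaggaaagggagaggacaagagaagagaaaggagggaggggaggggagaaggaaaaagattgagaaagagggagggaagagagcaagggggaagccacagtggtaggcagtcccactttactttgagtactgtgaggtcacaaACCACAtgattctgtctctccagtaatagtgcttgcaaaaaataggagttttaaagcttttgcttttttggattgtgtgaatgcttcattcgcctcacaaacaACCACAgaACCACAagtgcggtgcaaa
Bglap (chr3:88384417-88384716, minus strand): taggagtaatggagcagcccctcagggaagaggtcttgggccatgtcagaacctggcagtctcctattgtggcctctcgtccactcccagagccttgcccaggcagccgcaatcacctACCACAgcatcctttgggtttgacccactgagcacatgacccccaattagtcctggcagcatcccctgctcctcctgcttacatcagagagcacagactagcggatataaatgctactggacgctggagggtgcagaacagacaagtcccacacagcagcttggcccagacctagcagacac
Ibsp (chr5:104299037-104299336, plus strand): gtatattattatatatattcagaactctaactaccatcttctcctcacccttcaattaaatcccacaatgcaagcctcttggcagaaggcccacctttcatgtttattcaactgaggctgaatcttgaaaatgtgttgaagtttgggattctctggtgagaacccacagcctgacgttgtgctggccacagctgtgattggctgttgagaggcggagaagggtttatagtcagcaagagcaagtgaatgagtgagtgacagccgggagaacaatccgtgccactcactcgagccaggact
Spp1 (chr5:104434861-104435160, plus strand): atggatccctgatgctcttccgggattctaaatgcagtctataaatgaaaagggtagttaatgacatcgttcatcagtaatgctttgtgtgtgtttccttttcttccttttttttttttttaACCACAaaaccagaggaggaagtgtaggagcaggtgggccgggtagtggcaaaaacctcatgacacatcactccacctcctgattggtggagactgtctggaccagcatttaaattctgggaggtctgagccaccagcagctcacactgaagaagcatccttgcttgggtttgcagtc
The window of Bglap held 1 match, 132 bases before the start, the Spp1 window shown held 1, 128 bases before the start (a further Spp1 window in the table held none), and that of Runx2 held 3, of which 1 lay 80 bases before and the others 23 and 31 bases after the start. The Ibsp window held none. A window was at hand for 20 of the 34 genes, and 7 of these 20 (35%) had a match in 1 or more windows, beside 18.9% of 27025 genes in the table. By window, 7 of 32 windows of these genes and 16.8% of all 32851 windows had a match. A match of 6 letters is a description of the sequence and not a measured binding site.

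The libraries held 13086373 to 16528394 counts. Although the bones had been cleaned of muscle by the methods, 19 genes of skeletal muscle fibres took 13.6% (T1D mouse 1) to 25.3% (NGT mouse 3 and T1D mouse 3) of the counts. Bglap, Sp7 and Ibsp were above 3 counts in 8 of the 9 libraries, but in NGT mouse 2 Bglap and Sp7 were at 0, Bglap2 at 1 and Ibsp at 2 counts. Of the 10 osteocyte genes, 4 had 3 counts or fewer in NGT mouse 2 (Sost, Mepe and Dkk1 at 0) and 5 in Lira mouse 2 (Dkk1 and Fgf23 at 0). NGT mouse 2 also had the lowest summed level of the neutrophil, B cell, erythroid, macrophage and osteoclast lists among the 9 libraries. The 12 neutrophil genes summed to 8.58 CPM there (CPM are counts scaled to a common library total) and to 57.0 to 5476 CPM elsewhere, with Ly6g, Mpo, Cebpe and Retnlg at 0, and 6 of the 11 B cell genes were at 0. The part of this in the low bone genes was not tested. In total, 13 of the 34 genes had 3 counts or fewer in NGT mouse 2 and 7 in Lira mouse 2, against 1 to 4 in each of the other 7 libraries. T1D mouse 1 stood apart in the other direction, as described below. The main results are therefore also given without these mice. A count of 0 allows up to 3 counts, and in whole tibia fewer osteoblasts and less RNA per osteoblast cannot be told apart.

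Osteoblast and mineralization genes varied more from mouse to mouse than the median tested gene. The median SD within a group, on the log2(CPM + 1) scale, was 0.77 over the 30 tested genes and 0.31 over all 13960. A spread of this size was not particular to them, since the median SD was 0.77 over the osteocyte list and 0.75 over the osteoclast list. It was larger, at 2.84, 2.48 and 1.24, over the neutrophil, erythroid and macrophage lists. Some lists varied less, such as collagen I and its processing with 0.57 and the endothelial list with 0.31. Of the 30 genes, Enpp1 was the steadiest (SD 0.28), and 58.2% of all tested genes had a larger SD. Matrix proteins had the widest spread with a median SD of 1.44, and the phosphate and mineralization genes the narrowest with 0.44. The value 0.44 is that of Slc13a5, which had 0 to 28 counts, and log2(CPM + 1) compresses the spread of so scarce a gene. Next to it in rank were Phospho1 (0.42) and Slc20a1 (0.55). T1D mouse 1 held the highest level of 24 of the 30 genes, where 20.7% of all tested genes were highest in that library. NGT mouse 2 held the lowest level of 17 of the 30, against 15.1% of all tested genes. Relative to each gene's median over the 9 libraries, the median of the 30 genes was 2.79-fold in T1D mouse 1 and 0.659-fold in NGT mouse 2.

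**Figure D1:**
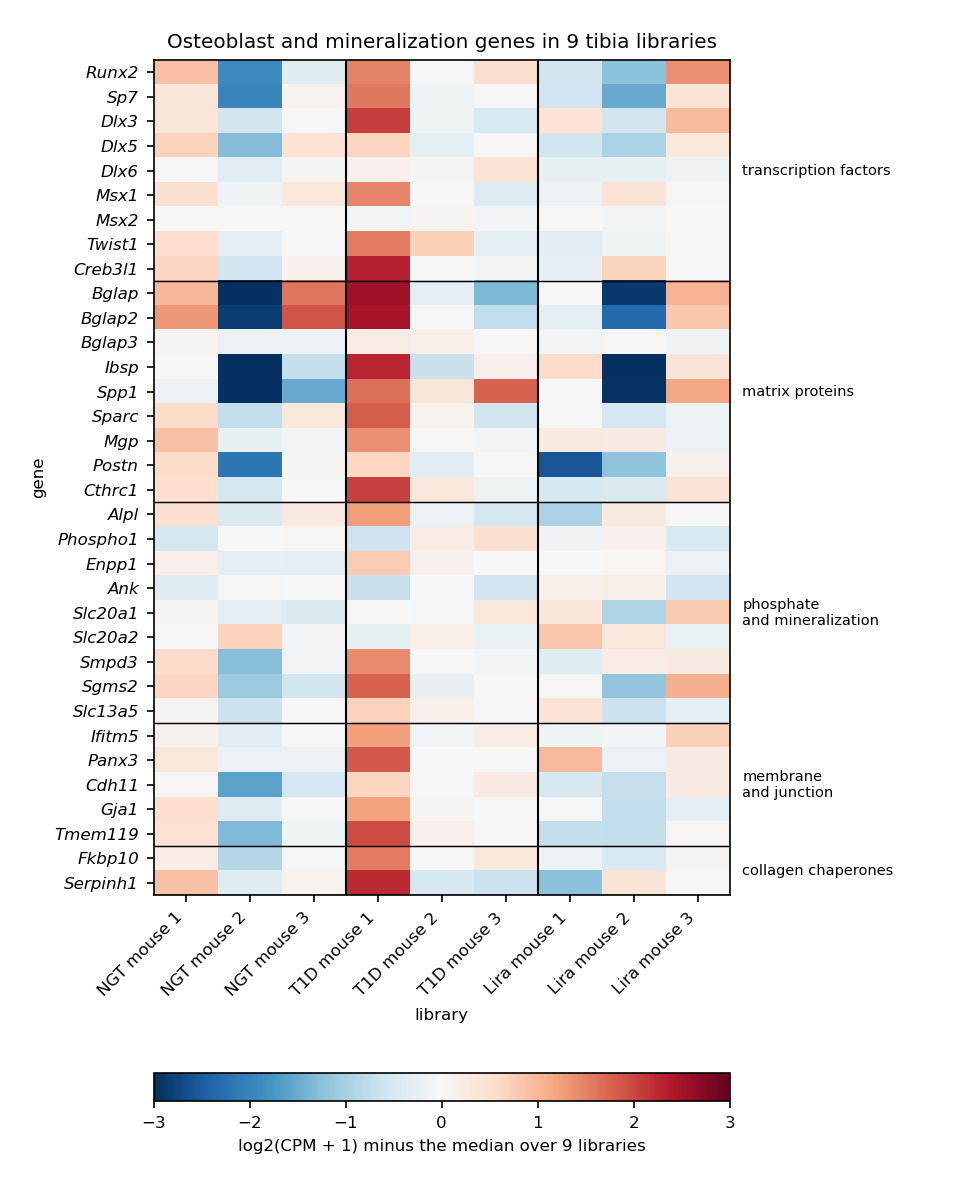
Level of each of the 34 genes (rows) in each of the 9 libraries (columns), as log2(CPM + 1) minus the gene's median over the libraries, grouped by role. Values past the ends of the scale take the end colour. The T1D mouse 1 column is red for most genes, and the NGT mouse 2 and Lira mouse 2 columns are deep blue for Bglap, Bglap2, Ibsp and Spp1.

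No osteoblast or mineralization gene passed the test in any comparison. With edgeR's quasi-likelihood test and Benjamini-Hochberg adjustment, 0 of the 30 genes were called between T1D and NGT mice at an adjusted p under 0.05 and a fold change over 2, as were 0 of all 13960 genes (0% called). Between Lira and T1D mice, and over the 3 groups, the counts were again 0 of 30 and 0% called. Over all genes DESeq2 called 0, 1 and 2, and it called 0 of the 30 between Lira and T1D mice and over the 3 groups. Between T1D and NGT mice DESeq2 gave an adjusted p for 3 of the 30 genes (Sparc, Phospho1 and Ank) and none for the others, Spp1 among them, so that these could not be called. At an unadjusted p under 0.05, 1 of the 30 genes (Spp1) differed between T1D and NGT mice beside 3.95% of all genes, 2 of the 30 (Twist1 and Gja1) differed between Lira and T1D mice beside 3.33%, and 0 of the 30 differed over the 3 groups beside 2.41%. With 30 genes, each of these counts lies within about 1 gene of what the share over all genes gives.

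The fitted differences nevertheless leaned one way. Compared with NGT mice, 28 of the 30 fitted values were higher in T1D mice, beside 52.1% of all tested genes, and the median log2 fold change was 0.77 beside 0.02 over all genes. A difference above 1 on the log2 scale was fitted for 11 of the 30, beside 5.27% of all genes. Compared with T1D mice, 27 of the 30 fitted values were lower in Lira mice, beside 44.7% of all genes, with a median of -0.94 beside 0.04, and 14 of the 30 lay below -1, beside 4.41% of all genes. The 3 T1D mice enter both comparisons, so that a high value in one of them shifts both. Some lists of other cell types leaned likewise. Between T1D and NGT mice 10 of 11 macrophage genes (median 2.08) and 9 of 9 Schwann cell genes (median 1.57) were higher. Between Lira and T1D mice these medians were -1.22 and -1.73. The skeletal muscle, endothelial, neutrophil and B cell lists had medians below 0 between T1D and NGT mice.

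In the fit without pairs, the lean of the 30 genes depended on T1D mouse 1, and no fit with pairs was made without this mouse. Without this mouse, the 30 fitted values split into 16 above and 14 below 0 between T1D and NGT mice, with a median log2 fold change of 0.04, and likewise into 16 above and 14 below 0 between Lira and T1D mice, with a median of 0.07. Between T1D and NGT mice 1 of the 30 then lay above 1 and 3 below -1, and between Lira and T1D mice 1 lay above 1 and 1 below -1. Without NGT mouse 2, the median between T1D and NGT mice was 0.44, with 24 genes higher. Without NGT mouse 2 and T1D mouse 1, 19 of the 30 were lower in T1D mice and the median was -0.29. Without Lira mouse 2, the median between Lira and T1D mice was -0.67. T1D mouse 1 also had the highest summed level of the macrophage, osteoclast, chondrocyte and tendon and fibroblast lists and the lowest of the skeletal muscle list among the 9 libraries. The 12 macrophage genes summed to 69.8 to 398 CPM in NGT mice, 152 to 2170.0 CPM in T1D mice and 158 to 622 CPM in Lira mice, and Marco, 1 of the 12, was at 0 in 5 libraries. Their part in the result was not tested.

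**Figure D2:**
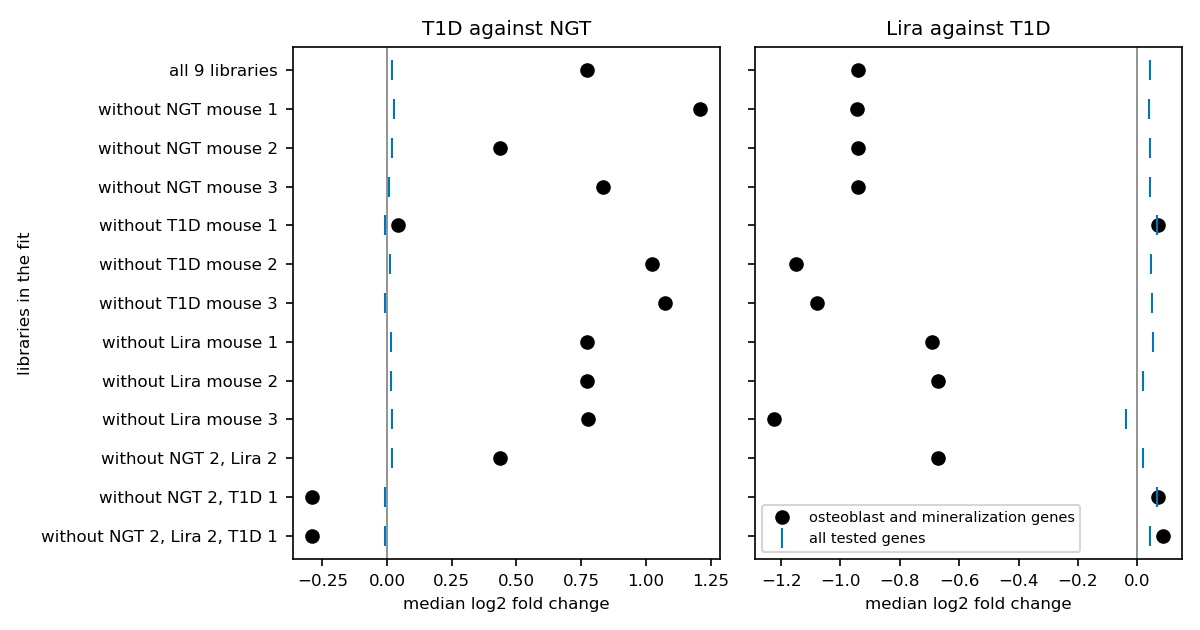
Median log2 fold change of the 30 tested genes (points) and of all tested genes (ticks) with all 9 libraries and with the named mice left out, for T1D against NGT (left) and Lira against T1D (right). The points lie at 0.04 on the left and 0.07 on the right when T1D mouse 1 is left out.

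When each T1D mouse was set against the NGT mouse of the same number, mouse 3 differed from the others. Of the 30 genes, 25 were higher in T1D mouse 1 than in NGT mouse 1 and 27 were higher in T1D mouse 2 than in NGT mouse 2, but 13 were higher and 17 lower in T1D mouse 3 than in NGT mouse 3. The median differences were 1.03, 0.85 and -0.05 on the log2(CPM + 1) scale. The genes were thus mostly higher also in the pair of mice 2, which holds NGT mouse 2 but not T1D mouse 1. In all 3 of these pairs, 11 genes were higher (Runx2, Ibsp, Spp1, Mgp, Enpp1, Smpd3, Sgms2, Ifitm5, Cdh11, Tmem119 and Fkbp10), beside 19.2% of all tested genes. Ank and Slc20a2 were lower in all 3 pairs, beside 19% of all tested genes. When the number entered the fit as a block, 4 of the 30 genes (Ibsp, Spp1, Cdh11 and Fkbp10) had an unadjusted p under 0.05 by edgeR's quasi-likelihood test, beside 5.39% of all genes, and 8 of 29 did in a fit of the NGT and T1D mice alone, beside 14.2%, with 0 calls in both. Over the 3 groups, 5 of the 30 (these 4 and Gja1) had an unadjusted p under 0.05 with the block by the same test. This stood beside 3.17% of all genes and 0 calls, and without the block 0 of the 30 did. The block over all 9 libraries numbered the Lira mice too. The pairing by number was a hint from these same data and not from the labels. A block chosen in this way lowers the spread left between mice, so that its counts are no support for a difference.

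Among the 9 transcription factors, Runx2, the regulator that commits cells to the osteoblast lineage, was detected in every library. Its level was 13.6, 1.08 and 5.15 CPM in NGT mice 1, 2 and 3, 21.1, 6.87 and 10.1 CPM in T1D mice and 4.35, 2.34 and 19.5 CPM in Lira mice. Runx2 and Sp7 were picked for this display after their values had been seen. The groups overlapped, with T1D mouse 1 and Lira mouse 3 highest and NGT mouse 2 lowest. The log2 fold change of Runx2 was 0.93 (SE 0.97, n = 3 against 3) between T1D and NGT mice and -0.54 (SE 0.96) between Lira and T1D mice. Without T1D mouse 1 these were 0.35 and 0.05, and without Lira mouse 3 the latter was -1.93.

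Sp7, which acts downstream of Runx2 and is needed for bone formation, was scarcer. It stood at 4.06, 0 and 3.25 CPM in NGT mice, 10.7, 2.55 and 2.93 CPM in T1D mice and 1.64, 0.39 and 4.13 CPM in Lira mice. T1D mouse 1 was highest, at 197 counts against 0 to 72 in the other libraries, and the remaining T1D mice lay within the range of NGT mice. The fitted log2 fold changes of 1.14 and -1.38 became 0.16 and -0.40 without T1D mouse 1.

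Twist1, a factor that restrains Runx2 activity in progenitors, had levels of 3.81, 1.86 and 2.37 CPM in NGT mice, 8.92, 4.58 and 1.80 CPM in T1D mice and 1.71, 2.02 and 2.47 CPM in Lira mice. T1D mice 1 and 2 were above all others, and T1D mouse 3 lay among the Lira mice, so that the groups overlapped. Between Lira and T1D mice the log2 fold change was -1.30 (SE 0.56), with an unadjusted p of 0.047 and an adjusted p of 0.978 by edgeR's quasi-likelihood test. Without T1D mouse 1 it was -0.62. Dlx6, a homeobox factor of the skeleton, was the only transcription factor whose T1D mice did not overlap with the NGT or with the Lira mice, at 4, 0 and 4 counts in NGT mice, 7, 5 and 10 in T1D mice and 1, 1 and 3 in Lira mice. With 10 counts at most it was below the level for testing, and its exact permutation p of 0.1 is the smallest that 3 against 3 allow. Of all tested genes, which do not include Dlx6, 3.52% were higher in all T1D than in all NGT mice. In the second comparison 3.39% were lower in all Lira than in all T1D mice. The share with both patterns was not counted. Creb3l1, an activator of collagen genes, was at 39.2 CPM in T1D mouse 1 and between 4.49 and 11.99 CPM elsewhere. The other homeobox factors Dlx3, Dlx5, Msx1 and Msx2 reached at most 7.18 CPM, and Msx2 had at most 2 counts in a library. All 7 tested transcription factors had a fitted log2 fold change above 0 between T1D and NGT mice (median 0.93) and below 0 between Lira and T1D mice (median -0.97), and 0 were called. Without T1D mouse 1, 3 of the 7 were above 0 in the first comparison (median -0.22) and 3 below 0 in the second (median 0.05).

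The matrix proteins were the most uneven group. On the FPKM scale, which corrects for gene length, Sparc (osteonectin, a collagen-binding protein) was highest of the 34 genes with a median of 155 FPKM over the libraries. Phospho1 followed with 90.8, Ank with 75.2, Mgp with 61.6 and Spp1 with 60.7 FPKM. Of these only Sparc, Mgp and Spp1 are matrix proteins.

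Osteocalcin showed no common shift between groups. Bglap was at 29.1, 0 and 44.4 CPM in NGT mice, 86.5, 11.3 and 4.94 CPM in T1D mice and 14.0, 1.01 and 29.7 CPM in Lira mice. Bglap2, whose coding sequence is nearly the same, was at 18.3, 0.077 and 27.9 CPM, 42.0, 6.81 and 3.67 CPM and 5.35, 0.55 and 12.7 CPM in the same order. T1D mouse 1 was highest for both genes, while T1D mice 2 and 3 were below NGT mice 1 and 3, and the groups overlapped. The log2 fold change between T1D and NGT mice was 0.49 (SE 1.60) for Bglap and 0.18 (SE 1.47) for Bglap2. Both turned with the libraries used, to -1.60 and -1.56 without T1D mouse 1 and to -0.10 and -0.40 without NGT mouse 2. Between Lira and T1D mice the values of -1.20 and -1.49 turned to 0.88 and 0.25 without T1D mouse 1. Bglap3 had 3, 0 and 0 counts in NGT mice, 6, 4 and 2 in T1D mice and 1, 2 and 1 in Lira mice, too few to test.

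Ibsp (bone sialoprotein, a protein that nucleates mineral) reached 54.5, 0.15 and 32.8 CPM in NGT mice, 270 (T1D mouse 1), 33.98 and 60.4 CPM in T1D mice and 83.3, 3.97 and 71.4 CPM in Lira mice. It was picked for display after its values had been seen. The groups overlapped, since NGT mouse 1 exceeded T1D mouse 2, and the mice with the least Ibsp were NGT mouse 2 and Lira mouse 2. Its log2 fold change between T1D and NGT mice was 2.06 (SE 1.49, adjusted p = 0.977 by edgeR's quasi-likelihood test), and it was 0.69 without T1D mouse 1, 1.48 without NGT mouse 2 and 0.11 without both. The log2 fold change of Ibsp between Lira and T1D mice was -1.20 (SE 1.45), and 0.17 without T1D mouse 1.

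Spp1 (osteopontin, a matrix phosphoprotein to which osteoclasts attach) was the 1 tested gene whose T1D and NGT mice did not overlap. Its levels were 71.1, 4.18 and 27.4 CPM in NGT mice, 252, 103 and 273 CPM in T1D mice and 79.8, 9.42 and 180 CPM in Lira mice. All 3 T1D mice were above all 3 NGT mice, a pattern that 3.52% of all tested genes showed in this direction, and Lira mouse 3 lay among the T1D mice. The mean was 34.2 ± 33.97 CPM in NGT and 209 ± 92.5 CPM in T1D mice (SD, n = 3), and the log2 fold change was 2.61 (SE 1.13). The unadjusted p was 0.047 and the adjusted p 0.977 by edgeR's quasi-likelihood test, and the exact permutation test, two-sided, gave 0.1, the smallest p it allows. Left out in turn, no mouse brought the log2 fold change of Spp1 below 2.09, and without both T1D mouse 1 and NGT mouse 2 it was 1.93. Spp1 is also made by macrophages and osteoclasts, so that its counts are not those of osteoblasts alone. The osteoclast list of 13 genes summed to 126 to 292 CPM in NGT mice, 208 to 519 CPM in T1D mice and 154 to 493 CPM in Lira mice, with Dcstamp at 0 in NGT mouse 2 and Lira mouse 2, and its part in the level of Spp1 was not tested. Between Lira and T1D mice the log2 fold change of Spp1 was -1.22 (SE 1.07), with overlapping groups, and it was -2.23 without Lira mouse 3 and -0.69 without Lira mouse 2.

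**Figure D3:**
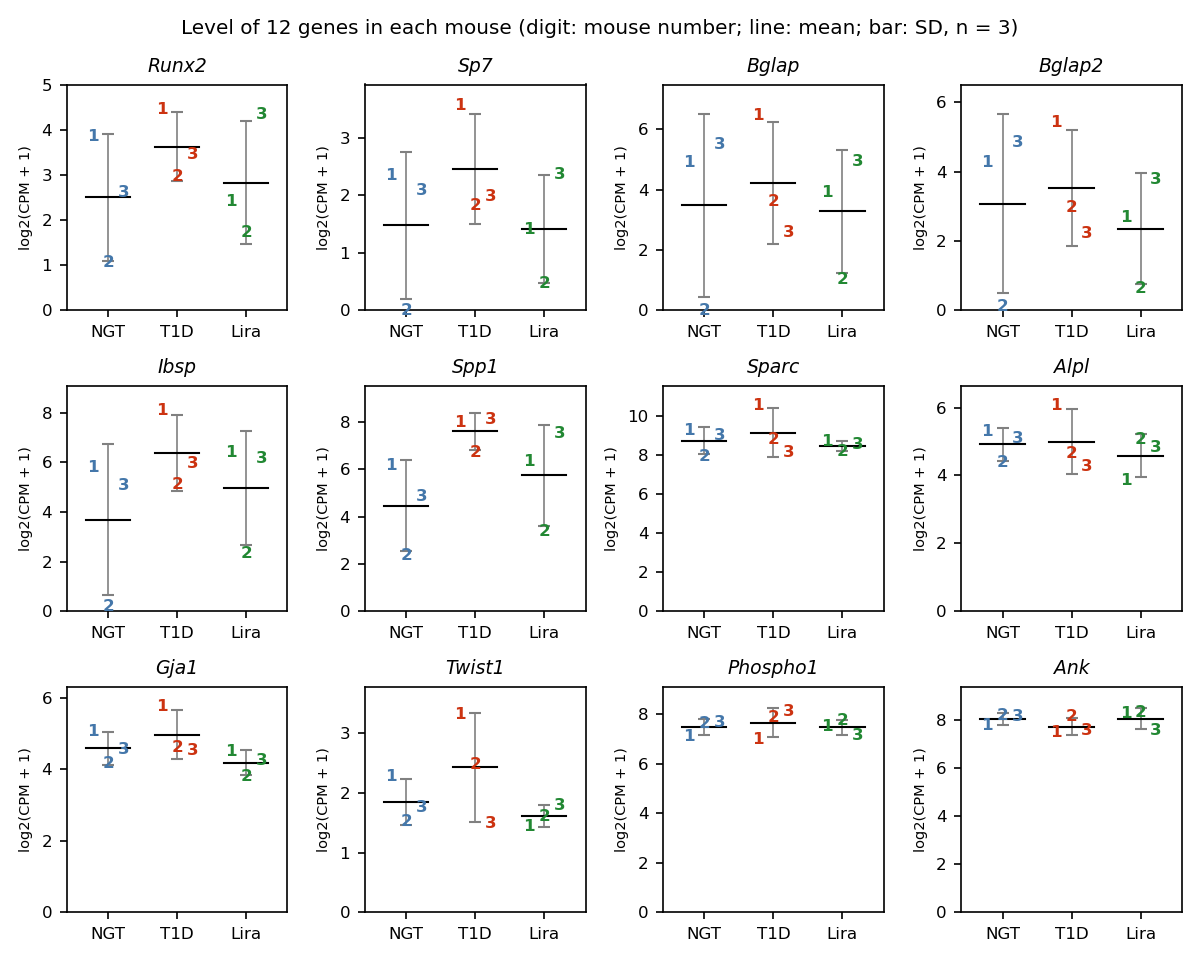
Level of 12 genes as log2(CPM + 1) in NGT, T1D and Lira mice, with each digit a mouse, the line the mean and the bar the SD (n = 3). Spp1 shows all T1D mice above all NGT mice, while for Bglap the digits of the 3 groups are mixed.

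Sparc was at 610, 246 and 513 CPM in NGT mice, 1469, 443 and 281 CPM in T1D mice and 414, 287 and 368 CPM in Lira mice. Only T1D mouse 1 lay outside the range of NGT mice. The log2 fold change of Sparc was 0.68 (SE 0.59) between T1D and NGT mice and -0.34 without T1D mouse 1. Mgp, an inhibitor of calcification that depends on vitamin K, was at 66.6, 30.3 and 33.3 CPM in NGT mice, 92.9, 35.5 and 33.5 CPM in T1D mice and 42.8, 42.1 and 31.5 CPM in Lira mice, and its log2 fold change between T1D and NGT mice was 0.31 (SE 0.45) with all libraries and -0.34 without T1D mouse 1. Postn (periostin, a protein of the periosteum) ranged from 13.2 CPM in Lira mouse 1 to 130 CPM in T1D mouse 1. Cthrc1, a secreted protein of collagen-making cells, had 100 counts in T1D mouse 1 and at most 19 elsewhere. All 8 tested matrix genes likewise had a positive fitted value for T1D mice (median 0.58) and a negative one for Lira mice (median -1.20), with 0 calls. Without T1D mouse 1, 3 of the 8 were positive in the first comparison (median -0.18) and 4 negative in the second (median 0.07).

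Phosphate and mineralization genes had the narrowest spread between mice. Their extremes were mixed, since T1D mouse 1 was highest for Alpl, Enpp1, Smpd3, Sgms2 and Slc13a5 but not for the others. Phospho1, a phosphatase that frees phosphate within matrix vesicles, was at 135, 194 and 203 CPM in NGT mice, 126, 228 and 272 CPM in T1D mice and 181, 212 and 140 CPM in Lira mice. T1D mouse 1 was the lowest of all 9 and NGT mouse 2 was near the middle. The log2 fold change was 0.23 (SE 0.31) between T1D and NGT mice, and it was -0.0037 without T1D mouse 3. Ank, the exporter of pyrophosphate, was at 220, 297 and 286 CPM in NGT mice, 178, 284 and 190 CPM in T1D mice and 316, 323 and 192 CPM in Lira mice. T1D mouse 1 was again lowest, and the groups overlapped. The log2 fold changes of Ank, -0.30 (SE 0.27) and 0.35 (SE 0.27), kept their sign in every leave-one-out fit. Slc20a2, a sodium-phosphate cotransporter, gave -0.33 and 0.47, and its close relative Slc20a1 gave 0.30 and 0.14.

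Alpl, tissue-nonspecific alkaline phosphatase, which breaks down pyrophosphate, was among the genes that were highest in T1D mouse 1. It was picked after its values had been seen and stood at 38.3, 19.6 and 32.8 CPM in NGT mice, 66.2, 23.9 and 18.4 CPM in T1D mice and 13.6, 32.6 and 27.0 CPM in Lira mice. T1D mouse 1 was highest and Lira mouse 1 lowest, and the groups overlapped. Its log2 fold change between T1D and NGT mice was 0.26 (SE 0.52) with all libraries and -0.52 without T1D mouse 1. Enpp1, which makes pyrophosphate, ranged from 7.05 to 15.8 CPM. The sphingolipid enzymes Smpd3 and Sgms2 reached 14.5 and 26.4 CPM in T1D mouse 1 and at most 7.55 and 15.8 CPM elsewhere. Slc13a5, a citrate transporter, stayed at or below 28 counts. Of the 9 fitted values, 7 were above 0 for T1D against NGT mice and 6 below 0 for Lira against T1D mice, with medians of 0.30 and -0.42 and 0 calls. Without T1D mouse 1 these were 6 and 3, with medians of 0.05 and 0.12.

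Of the membrane and junction proteins, Gja1 (connexin 43, the gap junction protein by which osteoblasts and osteocytes are coupled) was the 1 tested gene of the 30 whose Lira and T1D mice did not overlap. It was at 32.2, 16.8 and 22.3 CPM in NGT mice, 52.9, 23.4 and 22.2 CPM in T1D mice and 21.6, 12.9 and 17.9 CPM in Lira mice. All 3 Lira mice were below all 3 T1D mice, a pattern shown in this direction by 3.39% of all tested genes, although Lira mouse 1 and T1D mouse 3 were close. The log2 fold change was -0.91 (SE 0.39), with an unadjusted p of 0.047 and an adjusted p of 0.978 by edgeR's quasi-likelihood test, and it was -0.38 without T1D mouse 1. Connexin 43 is also expressed by fibroblasts and vascular cells. The 12 genes of the tendon and fibroblast list summed to 801 to 1860.0 CPM in NGT mice, 919 to 4025 CPM in T1D mice and 832 to 1363 CPM in Lira mice, and their part was not tested.

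Cdh11, a cadherin of osteoblasts and other mesenchymal cells, ranged from 5.03 to 17.8 CPM in NGT mice, from 17.2 to 27.3 CPM in T1D mice and from 10.4 to 20.5 CPM in Lira mice. Its T1D and NGT mice met at 1 point, where NGT mouse 1 exceeded T1D mouse 2, and the log2 fold change of 0.92 (SE 0.45) was 0.71 without T1D mouse 1. Tmem119, a membrane protein that promotes osteoblast differentiation, was at 17.8 CPM in T1D mouse 1 and at most 5.46 CPM elsewhere. Ifitm5, a small membrane protein confined largely to osteoblasts, had 49 counts in T1D mouse 1 and 3 to 27 elsewhere. Panx3, a channel of chondrocytes and osteoblasts, had 56 counts in T1D mouse 1 and at most 17 elsewhere and was not tested. All 4 tested genes of this group were above 0 between T1D and NGT mice by fitted log2 fold change (median 1.15). Between Lira and T1D mice all 4 were below 0 (median -0.79), and 0 were called. Without T1D mouse 1, 3 of the 4 stayed above 0 in the first comparison (median 0.32). In the second, 3 of the 4 stayed below 0 (median -0.39).

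The collagen chaperones followed the same mouse. Serpinh1 (HSP47), which helps procollagen to fold, was at 265 CPM in T1D mouse 1 and between 23.0 and 103 CPM elsewhere. Its log2 fold change between T1D and NGT mice was 0.72 (SE 0.79) and turned to -0.88 without T1D mouse 1. Fkbp10, a prolyl isomerase of the endoplasmic reticulum that acts on collagen, was at 27.8 CPM in T1D mouse 1 and 4.49 to 11.5 CPM elsewhere, and its log2 fold change of 1.02 (SE 0.47) was 0.36 without that mouse.

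**Figure D4:**
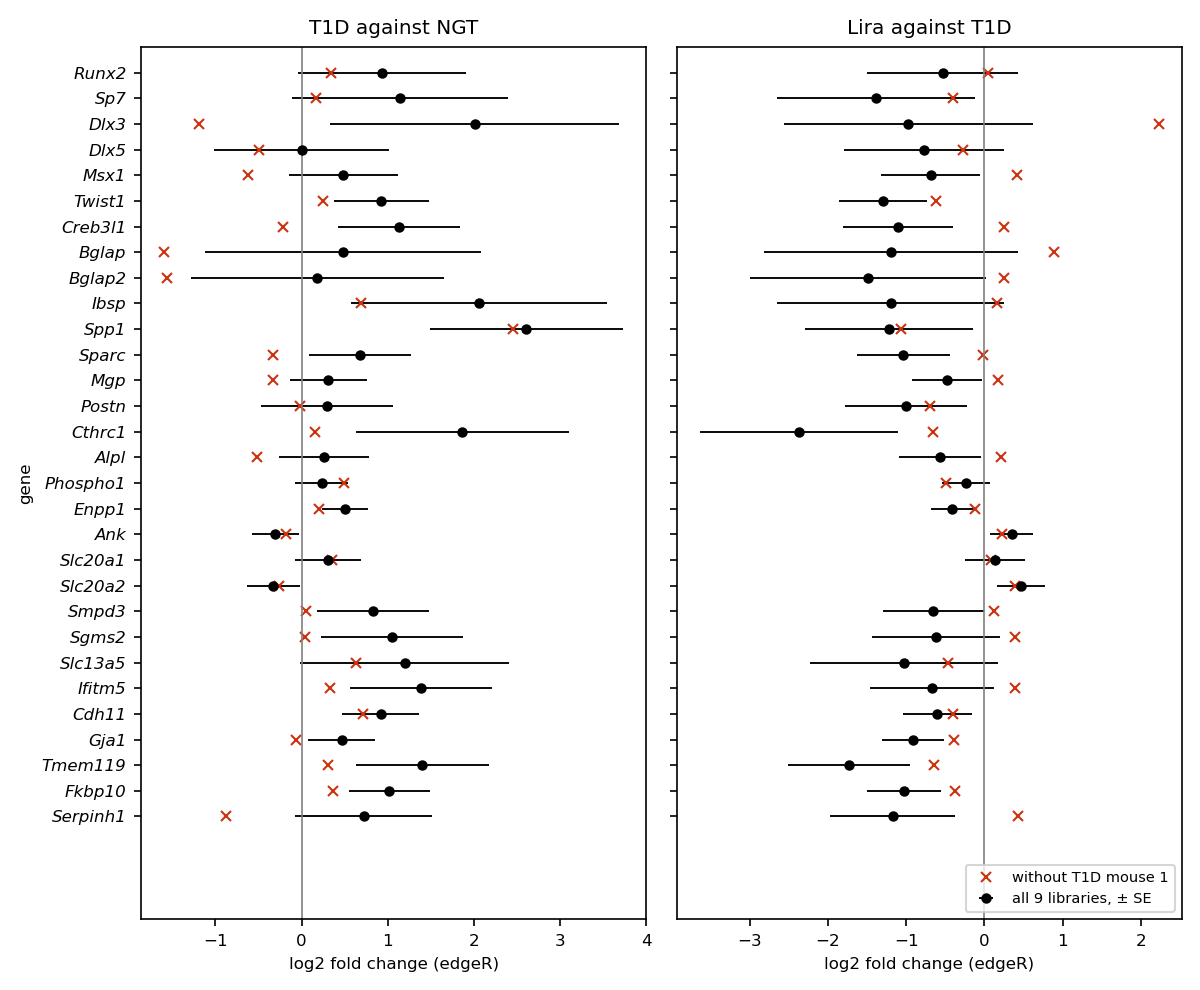
Fitted log2 fold change of each of the 30 tested genes with its standard error (points and bars, all 9 libraries) and without T1D mouse 1 (crosses), for T1D against NGT and Lira against T1D. Most crosses lie nearer to 0 than the points or on the other side, as for Bglap, where 0.49 becomes -1.60, while the cross of Spp1 stays at 2.45.

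Shares within a library were compared as well. The counts of Bglap and Bglap2 together, as a share of these and Ibsp counts, set a late marker of the lineage beside another matrix gene, and the share was picked after the values had been seen. It was 46.5% (exact 95% binomial interval 44.1 to 49.0%) in NGT mouse 1 and 68.8% (66.2 to 71.3%) in NGT mouse 3, while NGT mouse 2 with 3 counts in all gave no usable share. It was 32.3%, 34.7% and 12.5% in T1D mice and 18.8%, 28.2% and 37.3% in Lira mice, where Lira mouse 2 rested on 71 counts. NGT mice 1 and 3 were thus above all 6 diabetic mice, but with 2 usable NGT mice no test was made, and the intervals cover counting error only. As a share of osteocalcin and Sparc counts, osteocalcin was 7.21%, 0.031% (1 of 3180 counts, the lowest of the 9 libraries) and 12.4% in NGT mice 1, 2 and 3, 8.05%, 3.92% and 2.97% in T1D mice and 4.47%, 0.54% and 10.3% in Lira mice, so that with Sparc the groups overlapped.

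**Figure D5:**
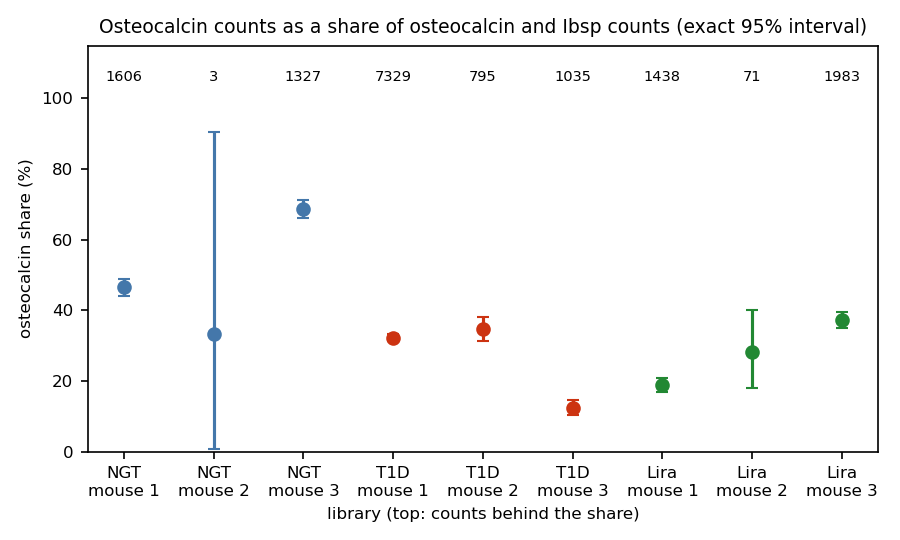
Counts of Bglap and Bglap2 as a percent of these and Ibsp counts in each library, with exact 95% binomial intervals and the counts behind each share at the top. NGT mice 1 and 3 (46.5% and 68.8%) lie above the T1D and Lira mice, and the interval of NGT mouse 2 spans most of the axis because it rests on 3 counts.

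Other genes of bone formation were counted in 4 lists. Of 9 tested osteocyte genes, 7 lay above and 2 below 0 between T1D and NGT mice by fitted log2 fold change (median 0.99), of 23 genes of collagen I and its processing 17 and 6 (median 0.60), of 25 other genes of the osteoblast lineage 16 and 9 (median 0.27), and of 11 genes of mineral inhibition, phosphate and vitamin K 8 and 3 (median 0.49). In each list 0 genes were called. Col1a1, the main chain of bone collagen, was at 719, 89.8 and 739 CPM in NGT mice, 3208, 333 and 331 CPM in T1D mice and 412, 193 and 618 CPM in Lira mice. Col1a1 was picked after its values had been seen, and T1D mouse 1 was highest and NGT mouse 2 lowest. Its log2 fold change between T1D and NGT mice was 1.32 (SE 1.04) with all libraries and -0.64 without T1D mouse 1. Between Lira and T1D mice the medians of the 4 lists were -0.39, -0.53, -0.07 and -0.40 in the same order, with 0 calls. Without T1D mouse 1 the medians were 0.29, -0.13, 0.20 and 0.05 between T1D and NGT mice and 0.26, 0.10, -0.09 and -0.04 between Lira and T1D mice.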

How the data were processed

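Total RNA of 9 tibias was enriched with oligo(dT) and sequenced, 1 library per mouse. The authors aligned clean reads to the mouse genome (mm9 by the submitters' processing notes) and calculated expression per gene, and the aligner and counting tool are not given in the sources used here. They deposited expected counts (estimated counts per gene, not normalized, 30.2% of them not whole) and expression values whose headers name no unit. These deposited values were taken as FPKM, since for genes of high counts their ratio to the counts, scaled per library, is nearly constant per gene, and their column totals differ. Deposited group averages are the authors' means and were not used, and 0 columns were left without a sample.

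Expected counts were rounded and a minimum of 10 counts in 3 or more of the 9 libraries applied. Fits used R 4.3.3 and edgeR 4.0.16 (TMM, glmQLFit and glmQLFTest, 3 group means over all 9 libraries), with Benjamini-Hochberg adjustment over all 13960 tested genes. A gene was called at an adjusted p under 0.05 and a fold change over 2. CPM were scaled to the TMM-adjusted total of tested genes. Standard errors were derived from the F statistic. Single values were compared by exact permutation over mice, two-sided, on log2(CPM + 1), where 3 against 3 allow no p under 0.1. The fit was tested on simulated data. FPKM served for levels between genes and for 1 alternative, limma 3.58.1 on log2(FPKM + 0.1).

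Values in every mouse are given for genes with an unadjusted p under 0.05, for genes whose groups did not overlap, for the 5 with the highest median FPKM and for the osteocalcin genes, and others are named as picked after their values were seen. The genes and lists were chosen with earlier results of these data known. Alternatives were DESeq2 1.42.0, library size, no filter, detection in all 3 mice of a group, the replicate number as a block, a fit without the third group, no fold threshold, the robust option, limma on FPKM, normalization without muscle genes and leaving out each mouse. Leaving out several mice together was added after seeing the data. Same-numbered NGT and T1D mice deviated together across tested genes (correlations of their deviations from the group means 0.58, 0.65 and 0.28), so that these numbers were taken as pairs, a hint from the data and not from the labels. Of the same-numbered T1D and Lira mice, numbers 2 and 3 also deviated together (0.61 and 0.27) but number 1 did not (-0.24). Mouse-by-mouse differences by number were therefore not taken between Lira and T1D mice. The block over all 9 libraries nevertheless gave the Lira mice their numbers as well. Only the block fit of NGT and T1D mice alone left them out.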

Additional observations from a re-analysis of the deposited data

How the results depend on the processing

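No setting called any of the 34 genes, although DESeq2 gave an adjusted p for only 3 of the 30 between T1D and NGT mice. Over all genes, DESeq2 called 1 gene between Lira and T1D mice and 2 over the 3 groups, where edgeR called 0. Over the alternatives, the lowest adjusted p among these genes was 0.23 between T1D and NGT mice, 0.745 between Lira and T1D mice and 0.795 over the 3 groups. The replicate number was also fitted as a block over all 9 libraries, Lira mice included. The median log2 fold change was then 0.85 between T1D and NGT mice and -0.75 between Lira and T1D mice. The block changed no call. For Runx2, Sp7, Twist1, Bglap, Bglap2, Ibsp, Spp1, Sparc, Mgp, Phospho1, Ank and Gja1, the other tools, scalings, filters and the block all kept the sign of both fold changes. Leaving out 1 or several mice, the median of the 30 genes ran from -0.29 to 1.21 between T1D and NGT mice, and single genes from -0.16 to 2.03 (Runx2), -0.42 to 1.74 (Sp7), -2.18 to 1.23 (Bglap), -2.14 to 0.92 (Bglap2), -0.63 to 1.07 (Sparc), -0.54 to 0.77 (Mgp), -0.0037 to 0.56 (Phospho1) and -0.26 to 0.75 (Gja1). Between Lira and T1D mice the median ran from -1.22 to 0.085, Runx2 from -1.93 to 0.50, Sp7 from -2.40 to 0.080, Bglap from -2.19 to 1.43, Bglap2 from -2.57 to 0.79, Ibsp from -1.68 to 0.71, Sparc from -1.43 to 0.11, Mgp from -0.73 to 0.17 and Phospho1 from -0.64 to 0.0060. The sign held, at times with values near 0, for Twist1 (0.042 to 1.33, and -1.70 to -0.61 between Lira and T1D mice), Ibsp (0.11 to 2.89 between T1D and NGT mice), Spp1 (1.93 to 3.73, and -2.23 to -0.53), Ank (-0.55 to -0.099, and 0.10 to 0.58) and Gja1 (-1.13 to -0.21 between Lira and T1D mice). The cause was not tested. For genes with 3 counts or fewer in a library (13 of 34 in NGT mouse 2), counting error is large.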
